A study of Mus musculus with 16 samples.

Results

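Chaperones bind unfolded protein and help it fold, and the heart makes large amounts of several of them. The genes described here are 40 mouse genes of heat shock and endoplasmic reticulum (ER) chaperones, taken by symbol from the 38087 gene rows of experiment A and the 54232 gene rows of experiment B. They fall into 4 classes: 7 small heat shock proteins, 15 cytosolic chaperones and their regulators, 3 mitochondrial chaperones, and 15 genes of ER chaperones and of the unfolded protein response. All 40 genes passed the filter on low values in both experiments.

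Small heat shock proteins hold unfolding proteins without using ATP and in muscle bind to the contractile apparatus and the cytoskeleton. HSP70 and HSP90 proteins fold clients in the cytosol in cycles of ATP use, with DNAJ and BAG proteins as their partners, and HSF1 is the transcription factor that switches on many of their genes under heat stress. HSP60, HSP10 and mortalin fold proteins imported into mitochondria. In the ER, BiP, GRP94, calreticulin, calnexin and the protein disulfide isomerases fold secreted and membrane proteins, and the sensors of the unfolded protein response, with XBP1 and ATF6 as transcription factors, raise their genes when folding fails.

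The hearts came from C57BL/6 mice with and without CAP2, a protein that binds actin. In experiment A, 3 CAP2 -/- hearts were set against 3 wild-type hearts, all from 86-week-old females. In experiment B, the Cre+ group had 4 hearts of 13-week-old mice with both Cap2 copies floxed (Loxp/Loxp) and Cre driven by Myh6, a promoter of cardiomyocytes, from 3 females and 1 male. Its 5 controls, from 3 females and 2 males of the same age, carried the same floxed copies and no Cre, so the loss of Cap2 cannot be told apart from the presence of Cre in cardiomyocytes. Cells of the heart other than cardiomyocytes keep Cap2 in this model. The males were Cre+ replicate 4 and control replicates 4 and 5. A further Cre+ sample was not analysed here.

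Cap2 itself had 8.34 to 16.2 CPM (counts scaled to library size) in CAP2 -/- hearts, against 197 to 228 CPM in wild type, with edgeR's adjusted p at 1.00e-07. In experiment B it averaged 65 ± 24.2 normalized counts in Cre+ hearts (SD, n = 4), against 391 ± 288 in controls (SD, n = 5; limma adjusted p = 0.0161). Depth in experiment A ran between 10750175 and 27440478 estimated counts. The depth behind experiment B is unknown, since its values were normalized before deposit. Mitochondrially encoded genes took 23.0% to 52.7% of the total in Cre+ libraries and 30.4% to 69.5% in controls. Summed markers of ventricular cardiomyocytes were high in every library, at 70148 to 84563 CPM in CAP2 -/- hearts and 78081 to 85632 CPM in wild type, and at 186283 to 280426 normalized counts in Cre+ hearts and 229604 to 355144 in controls. Of the ventricular markers, Pln was called lower in Cre+ hearts, at 2762 ± 412 normalized counts in Cre+ hearts (SD, n = 4) and 9029 ± 4580 in controls (SD, n = 5; limma adjusted p = 0.0333). Summed atrial markers were unequal between groups, though not for every marker or library. The 5 atrial markers summed to 29.4 to 35.8 CPM in CAP2 -/- hearts and 13.6 to 16.6 CPM in wild type, with Dkk3 called higher (edgeR adjusted p = 0.00191). Dkk3, Myl4 and Bmp10 had groups that did not overlap. Myl7 averaged 1.35 CPM in CAP2 -/- hearts and 1.22 CPM in wild type, with overlap, and Sln was not tested. In experiment B none of the 5 was called. There the atrial markers summed to 514, 19765, 43326 and 42847 normalized counts in Cre+ replicates 1 to 4, against 111, 766, 7240, 31 and 916 in control replicates 1 to 5. The 8 fibroblast markers summed to 11022 to 30187 in Cre+ hearts and 3271 to 13727 in controls, and to 1280 to 1308 CPM in CAP2 -/- hearts and 885 to 964 CPM in wild type. They were uneven in Cre+ hearts. Postn was called higher, with overlapping groups and a log2 fold change of 3.10 (limma adjusted p = 0.0407). The others were not called, with 2.39 for Col1a1, 2.17 for Col1a2, 0.78 for Tcf21 and 0.24 to 0.50 for Dcn, Lum, Pdgfra and Dpt. In these bulk samples, fewer cells of a type and less RNA per cell cannot be told apart.

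Promoters of these genes carry known control elements, and 5 windows are shown here because their genes carry the values described below. Each runs from 250 bases before to 50 bases after a transcription start, read 5′ to 3′ along the gene from RefSeq (build GRCm38.p6). Capitals mark the motifs searched on both strands: a heat shock element (GAANNTTC or TTCNNGAA) or an ER stress element (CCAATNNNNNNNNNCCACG). In the Hspe1 window the 3 heat shock element matches overlap in a chain.
Hspb1 (chr5:135887669-135887968, plus strand): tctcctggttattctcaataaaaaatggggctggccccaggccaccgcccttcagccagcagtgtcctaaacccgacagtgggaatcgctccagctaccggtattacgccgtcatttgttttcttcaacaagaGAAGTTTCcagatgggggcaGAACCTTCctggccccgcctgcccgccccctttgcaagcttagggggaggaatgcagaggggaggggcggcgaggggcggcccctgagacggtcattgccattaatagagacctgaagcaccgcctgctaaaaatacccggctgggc
Hspe1 (chr1:55087898-55088197, plus strand): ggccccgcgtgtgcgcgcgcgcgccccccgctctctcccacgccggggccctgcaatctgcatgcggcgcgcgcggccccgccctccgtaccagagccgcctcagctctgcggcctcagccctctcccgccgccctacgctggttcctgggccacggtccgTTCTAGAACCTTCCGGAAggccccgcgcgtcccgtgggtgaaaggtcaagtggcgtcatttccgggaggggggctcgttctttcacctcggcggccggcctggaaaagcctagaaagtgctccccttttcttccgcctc
Hspa1a (chr17:34972107-34972406, minus strand): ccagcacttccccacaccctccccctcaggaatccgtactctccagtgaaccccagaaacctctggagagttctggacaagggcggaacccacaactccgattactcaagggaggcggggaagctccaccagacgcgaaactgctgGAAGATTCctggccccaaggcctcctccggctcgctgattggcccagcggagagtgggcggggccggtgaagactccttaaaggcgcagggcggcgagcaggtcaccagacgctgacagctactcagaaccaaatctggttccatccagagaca
Canx (chr11:50325624-50325923, minus strand): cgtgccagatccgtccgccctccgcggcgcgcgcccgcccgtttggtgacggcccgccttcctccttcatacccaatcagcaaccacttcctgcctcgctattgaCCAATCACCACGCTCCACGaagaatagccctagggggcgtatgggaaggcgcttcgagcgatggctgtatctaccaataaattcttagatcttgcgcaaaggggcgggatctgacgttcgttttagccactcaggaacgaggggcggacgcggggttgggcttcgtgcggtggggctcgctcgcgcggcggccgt
Dnajc3 (chr14:118937682-118937981, plus strand): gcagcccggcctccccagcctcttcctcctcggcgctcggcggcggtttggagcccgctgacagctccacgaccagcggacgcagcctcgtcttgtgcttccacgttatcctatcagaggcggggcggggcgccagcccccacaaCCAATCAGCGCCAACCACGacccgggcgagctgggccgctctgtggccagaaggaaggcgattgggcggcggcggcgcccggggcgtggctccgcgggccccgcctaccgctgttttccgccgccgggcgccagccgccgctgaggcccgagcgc

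Hspe1 lies head to head with Hspd1, so the Hspe1 window covers nearly the same bases, on the other strand, as an Hspd1 window at chr1:55087883-55088182. The Hspa1b window is 98.7% identical to that of Hspa1a over 300 bases. Windows were found for 31 of the 40 genes, 40 windows in all. The genes without a window are Cryab, Hspb2, Hspa8, Hspa9, Hsp90aa1, Hsp90ab1, Hsf1, Manf and Hyou1. A heat shock element match was present in 12 of the 40 windows (30.0%), against 15.1% of all 32851 promoter windows. By gene, it was found in 4 of 5 small heat shock proteins, 5 of 11 cytosolic chaperones, 2 of 2 mitochondrial chaperones and 0 of 13 ER chaperones. The count over all promoters was 4587 of 27025 genes. The mitochondrial genes are Hspd1 and Hspe1, whose matches lie on the shared bases. The 12 windows also include overlapping windows of Hsph1, so they are not all separate stretches. The ER stress element match was present in 7 of 13 ER windows (53.8%), those of Calr, Canx, Creld2, Dnajc3, Hsp90b1, Hspa5 and Pdia6, in 0 windows of the other 3 classes and in 0.119% of all windows. The CArG box, the motif of the transcription factor SRF, was matched in 1 of 40 windows, that of Herpud1, and in 1.63% of all windows.

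Per length of annotated exon, 3 small heat shock proteins led the 40 genes in experiment A, while another of the class, Hspb3, ranked 27 in both groups. Cryab (αB-crystallin), Hspb7 and Hspb6 averaged 1407 ± 130, 1207 ± 48.7 and 713 ± 122 CPM per kb in CAP2 -/- hearts, against 1481 ± 54.3, 1243 ± 148 and 557 ± 105 CPM per kb in wild type (SD, n = 3 each). In experiment B, Cryab was again the highest of the 40 genes, at 9246 ± 1690 normalized counts per kb in Cre+ hearts (SD, n = 4) and 5834 ± 1869 in controls (SD, n = 5). Among cytosolic chaperones, Hsp90ab1, the constitutive HSP90, had 494 ± 26.2 CPM per kb in CAP2 -/- hearts and 505 ± 20.7 in wild type. The stress-inducible HSP70 genes Hspa1a and Hspa1b were lowest in experiment A. Hspa1a averaged 1.41 ± 0.639 CPM per kb in CAP2 -/- hearts and 1.47 ± 0.602 in wild type, and Hspa1b averaged 1.29 ± 0.365 CPM per kb in CAP2 -/- hearts and 1.28 ± 0.432 in wild type (SD, n = 3 each).

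**Figure D1:**
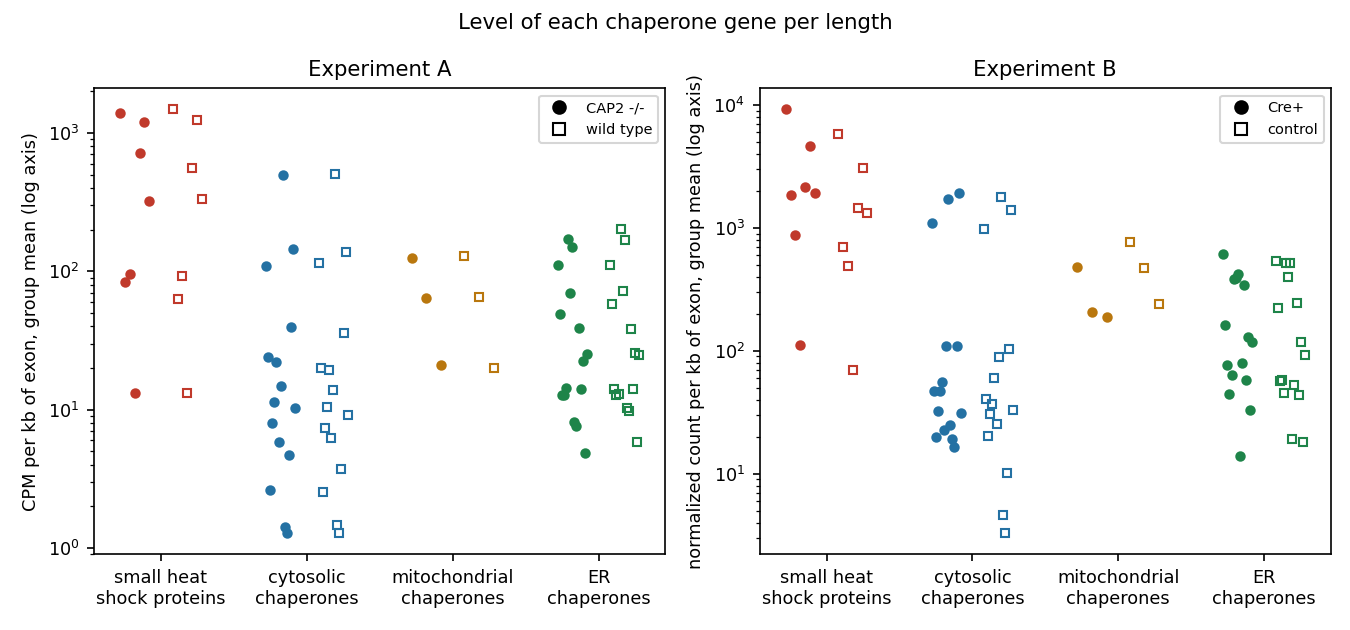
Mean level of each of the 40 chaperone genes per kb of annotated exon, on a log axis, in CPM for experiment A (left) and normalized counts for experiment B (right). Filled circles are CAP2 -/- or Cre+ hearts and open squares are wild type or controls; Cryab is the highest gene of both panels, at 1407 CPM per kb in CAP2 -/- hearts and 1481 in wild type, and at 9246 normalized counts per kb in Cre+ hearts and 5834 in controls.

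The comparison of experiment A asked which of these genes differ in the aged heart without CAP2. None of the 40 was called, where a call is a Benjamini-Hochberg adjusted p under 0.05 in edgeR's quasi-likelihood test over 16297 genes. All genes together gave 1.35% called. The authors' deposited table likewise had 0 of the 40 genes under an adjusted p of 0.05, with 2.61% of its genes under it, and DESeq2 called 0 of the 40, with 2.47% of all genes called. At an unadjusted p under 0.05, 3 genes were higher in CAP2 -/- hearts (Hspb1, Hspb6 and Bag2), beside 5.11% of all genes. Another 3 were lower (Canx, Hyou1 and Manf), beside 5.32% of all genes. Groups did not overlap for 2 genes higher in CAP2 -/- hearts (Hspb1 and Dnajc3) and for 3 lower (Canx, Hyou1 and Manf), where all genes gave 7.60% and 8.00%. The fold change was above 0 for 21 of the 40 genes, beside 50.9% of all genes, and its median over the 40 was 0.0032 on the log2 scale, beside 0.0057 over all genes.

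Experiment B asked the same of younger hearts in which Cap2 was removed from cardiomyocytes. Again 0 of the 40 genes were called by limma on log2(normalized count + 1), beside 1.88% of the 12141 genes tested. At an unadjusted p under 0.05, 12 genes were higher in Cre+ hearts, 30.0% of the 40, beside 7.89% of all genes, and 1 was lower, Hspd1, beside 14.2%. Groups did not overlap for 1 gene higher in Cre+ hearts, Hspb2, and for 1 lower, Hspd1, beside 3.87% and 4.79% of all genes. The fold change was above 0 for 28 of the 40 genes and for 41.5% of all genes. Its median was 0.35 over the 40 genes, where all genes tested had a median of -0.12 on the same log2 scale. With TMM scaling the median of all genes moved to -0.012 and that of the 40 genes to 0.46, with 30 of the 40 above 0. Of the 40 genes, 23 had the same sign in both experiments (57.5%), as did 57.6% of the 11806 genes tested in both.

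**Figure D2:**
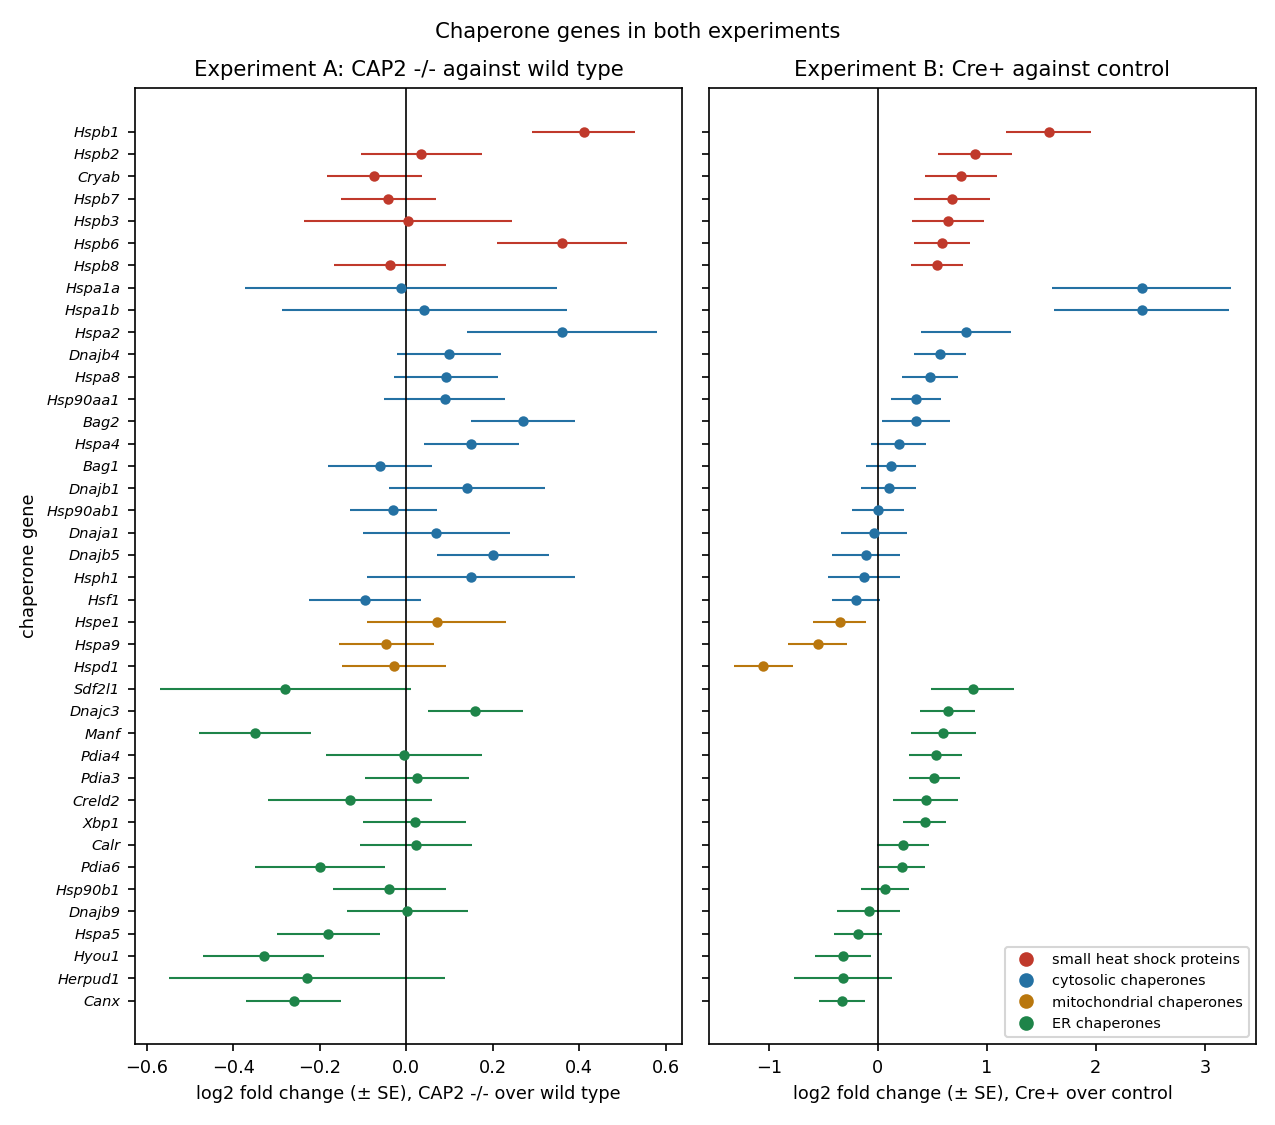
Log2 fold change ± SE of each chaperone gene, CAP2 -/- over wild type in experiment A (left) and Cre+ over controls in experiment B (right); genes run down the page by class, in the order of experiment B, and the horizontal scales differ. All 7 small heat shock proteins lie right of 0 in experiment B, from 0.54 to 1.57, and all 3 mitochondrial chaperones left of it, from -1.05 to -0.35.

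Among small heat shock proteins, Hspb1 stood nearest to a call in both experiments. Hspb1 encodes HSP25, a small heat shock protein that binds actin filaments (chromosome 5, 135887919 to 135889563, mm10), and its promoter window above holds 2 heat shock element matches. It had 91.1, 79.7 and 87.7 CPM in CAP2 -/- hearts, against 69.5, 58.1 and 66.5 CPM in wild type. Every CAP2 -/- library lay above every wild-type library. The log2 fold change was 0.41 (SE 0.12, edgeR adjusted p = 0.126). In experiment B, Hspb1 had 1155, 2331, 1553 and 2696 normalized counts in Cre+ hearts, against 942, 697, 337, 424 and 1188 in controls. Cre+ replicate 1 lay below control replicate 5 and the other 3 Cre+ libraries above all controls. The log2 fold change was 1.57 (SE 0.39, limma adjusted p = 0.0669), or 2.97-fold on the log2(value + 1) scale. Hspb1 was called in 4 of the 17 alternatives, and its adjusted p lay between 0.0321 and 0.276 across them. It was 0.0435 without Cre+ replicate 1, 0.0477 without control replicate 4 and 0.0321 without control replicate 5. Those fits also gave more calls over all genes, 695, 403 and 525 in that order, against 228 in the main fit. Of the 50-base stretches in Hspb1 transcripts, 48.8% also occur in the pseudogene Hsp25-ps1, so its counts are uncertain where reads were split between them.

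The other small heat shock proteins were all above 0 in experiment B. Hspb2 (chromosome 9, 50751078 to 50752354) had 852, 688, 663 and 753 normalized counts in Cre+ hearts, against 372, 586, 522, 145 and 441 in controls. The groups did not overlap, and control replicate 4 was lowest. Its log2 fold change was 0.89 (SE 0.34, limma adjusted p = 0.163). Cryab, the most abundant of the class (chromosome 9, 50751325 to 50756636), had 13055, 16631, 10651 and 14362 normalized counts in Cre+ hearts, against 10692, 9230, 4147, 8088 and 10987 in controls. Cre+ replicate 3 lay within the range of the controls, and the log2 fold change was 0.76 (SE 0.33, limma adjusted p = 0.201). Hspb2 and Cryab sit on opposite strands and share 252 exonic bases, 30.2% of those of Hspb2, and the strand setting of the counting is not given in the sources used here. Hspb6, a phosphoprotein of heart and smooth muscle also called HSP20, had 5039, 6154, 3763 and 4975 normalized counts in Cre+ hearts, against 4024, 3308, 2352, 3367 and 3744 in controls. Only Cre+ replicate 3 lay under the highest control, for a log2 fold change of 0.59 (SE 0.26, limma adjusted p = 0.209).

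Hspb3, Hspb7 and Hspb8, small heat shock proteins of muscle, had log2 fold changes of 0.64, 0.68 and 0.54 in Cre+ hearts, with overlapping groups. The class median in experiment B was 0.68, and all 7 genes stayed above 0 under TMM scaling, with a median of 0.78, and under quantile normalization, with a median of 0.59. In females only the median was 0.63, and the lowest gene was at 0.19, against 0.54 in the main fit. Library by library, the class median of log2 values lay 0.68, 0.90, 0.72 and 0.81 above the mean of the controls in Cre+ replicates 1 to 4. In control replicates 1 to 5 the same value was 0.29, 0.18, -0.49, -0.014 and 0.18, so no control reached a Cre+ library. Cre+ replicate 1, whose atrial markers summed to 514, within the range of the controls, had 0.68. The parts of atrial and fibroblast RNA in this class were not tested. That of the mitochondrial share was not tested beyond the fit with the share as a covariate. In that fit the median was 0.57 and the lowest gene was at 0.20.

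Experiment A showed no common direction for the class. Besides Hspb1, Hspb6 had 1323, 1855 and 1738 CPM in CAP2 -/- hearts, against 1026, 1313 and 1504 CPM in wild type. Its groups overlapped, and the log2 fold change was 0.36 (SE 0.15, edgeR adjusted p = 0.43). Cryab had 1860, 2174 and 2209 CPM in CAP2 -/- hearts, against 2108, 2193 and 2269 CPM in wild type. These values lie close together, for a log2 fold change of -0.074 (edgeR SE 0.11, adjusted p = 0.886). Over the 7 genes 4 were above 0 and 3 below, with a median of 0.0044.

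**Figure D3:**
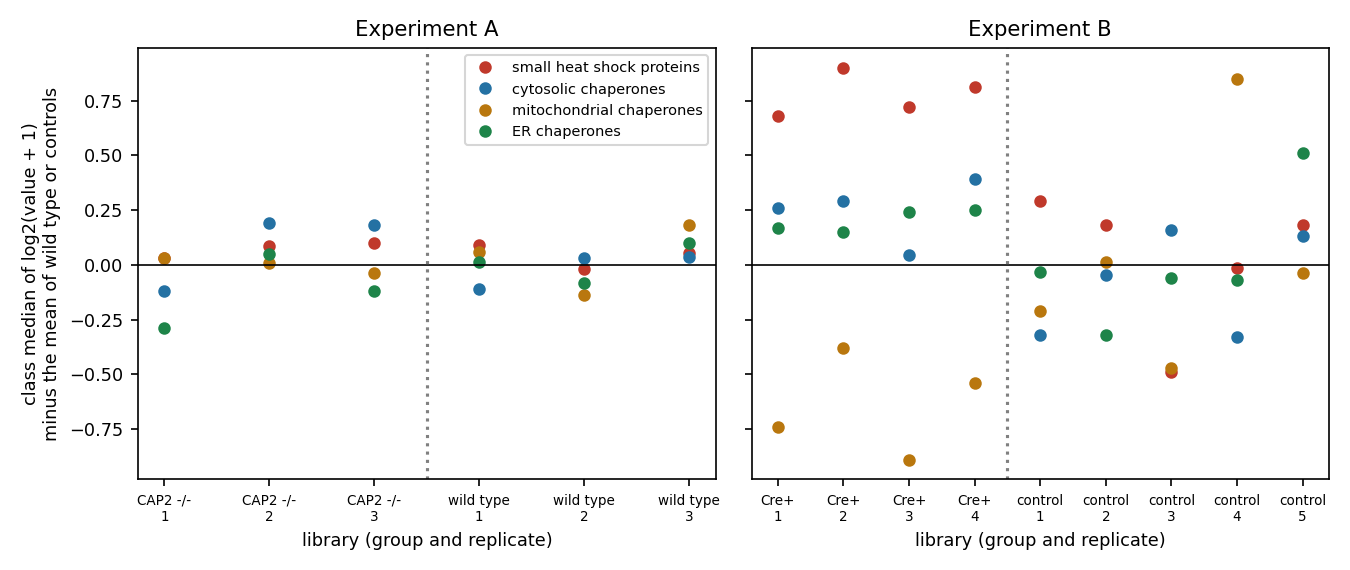
Median over the genes of each class of log2(value + 1), after subtracting for each gene the mean of wild type or controls, for each library of experiment A (left) and experiment B (right). Small heat shock proteins lie between 0.68 and 0.90 in the 4 Cre+ libraries and between -0.49 and 0.29 in the 5 controls, while mitochondrial chaperones reach 0.85 in control replicate 4.

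Cytosolic chaperones showed larger values in experiment B for the stress-inducible HSP70 genes. Hspa1a (chromosome 17, 34969190 to 34972156) had 57, 41, 18 and 178 normalized counts in Cre+ hearts, against 6, 16, 17, 1 and 28 in controls. Cre+ replicate 4 was far above the others, and Cre+ replicate 3 lay inside the controls' range. The log2 fold change was 2.42 (SE 0.82, limma adjusted p = 0.133). Hspa1b (chromosome 17, 34956436 to 34959238) had 41, 25, 13 and 137 normalized counts in Cre+ hearts, against 3, 9, 18, 1 and 15 in controls. Cre+ replicate 4 was again far above the rest and Cre+ replicate 3 inside the range of the controls, for a log2 fold change of 2.42 (SE 0.80, limma adjusted p = 0.127). Of the 50-base stretches of Hspa1b, 62.3% also occur in Hspa1a, so how reads divide between the pair is uncertain. Summed over both genes, the values were 98, 66, 31 and 315 in Cre+ hearts and 9, 25, 35, 2 and 43 in controls. With a pseudocount of 10 in place of 1 the log2 fold changes of the class reached 1.70 at most, against 2.42. Without Cre+ replicate 4, the only Cre+ male, the log2 fold change was 1.48 for Hspa1a and 1.44 for Hspa1b. With sex as a term that fit compares females only, so the male controls leave the comparison too. With the mitochondrially encoded share as a covariate the log2 fold change was 3.53 for Hspa1a and 3.67 for Hspa1b.

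In aged hearts both genes were low in both groups. Hspa1a had 2.9, 3.29 and 6.36 CPM in CAP2 -/- hearts, against 2.92, 6.36 and 3.81 CPM in wild type. Hspa1b had 2.81, 3.29 and 4.77 CPM in CAP2 -/- hearts, against 3.14, 4.98 and 2.69 CPM in wild type. The ranges nearly coincide, and edgeR's adjusted p was 0.995 for Hspa1a and 0.983 for Hspa1b.

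Other members of the class are partners and relatives of HSP70. Dnajb4, a DNAJ partner of HSP70, had 282, 483, 323 and 579 normalized counts in Cre+ hearts, against 251, 180, 238, 574 and 362 in controls. Control replicate 4 lay just under the highest Cre+ library, and the log2 fold change was 0.57 (SE 0.24, limma adjusted p = 0.199). In experiment A, Dnajb4 had 97.9, 106 and 92.5 CPM in CAP2 -/- hearts, against 85.4, 94.3 and 97.2 CPM in wild type. Bag2, a nucleotide exchange factor that also restrains the ubiquitin ligase CHIP, had 65.5, 75.9 and 78.8 CPM in CAP2 -/- hearts, against 54.9, 65.7 and 62.9 CPM in wild type. Its lowest CAP2 -/- library lay just under its highest wild-type library, for a log2 fold change of 0.27 (edgeR SE 0.12, adjusted p = 0.475). In experiment B, Bag2 averaged 143 ± 55.8 normalized counts in Cre+ hearts (SD, n = 4) and 123 ± 60.7 in controls (SD, n = 5).

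Hspa2, an HSP70 best known from male germ cells, had 13.9, 8.8 and 14.8 CPM in CAP2 -/- hearts, against 8.29, 11.6 and 9.43 CPM in wild type, for a log2 fold change of 0.36 (edgeR SE 0.22, adjusted p = 0.641). Dnajb5, a further DNAJ protein, had 155, 111 and 131 CPM in CAP2 -/- hearts, against 108, 119 and 118 CPM in wild type, for a log2 fold change of 0.20 (edgeR SE 0.13, adjusted p = 0.677). For both genes the groups overlapped, and CAP2 -/- replicate 2 was the lowest of its group. In experiment B, Hspa2 had a log2 fold change of 0.81 and Dnajb5 one of -0.11. Over the 15 cytosolic genes, 11 were above 0 in each experiment, with medians of 0.092 (experiment A) and 0.19 (experiment B). The shares of all genes above 0 were 50.9% and 41.5%. The constitutive genes Hspa8 and Hsp90ab1 and the regulator Hsf1 had log2 fold changes of 0.48, 0.0041 and -0.20 in Cre+ hearts, and of 0.092, -0.03 and -0.096 in CAP2 -/- hearts.

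All 3 mitochondrial chaperones had log2 fold changes below 0 in Cre+ hearts, and none was called; over all genes, 41.5% were above 0. The class median of log2 values, set against the mean of the controls, was -0.74, -0.38, -0.89 and -0.54 in Cre+ replicates 1 to 4, against -0.21, 0.012, -0.47, 0.85 and -0.039 in control replicates 1 to 5. Control replicate 3 lay inside the Cre+ range. Hspd1, the HSP60 subunit of the mitochondrial folding chamber (chromosome 1, 55077835 to 55088243), had 635, 507, 373 and 670 normalized counts in Cre+ hearts, against 989, 1180, 818, 2204 and 1043 in controls. The groups did not overlap, and control replicate 4 was the highest by a wide margin. The log2 fold change was -1.05 (SE 0.27, limma adjusted p = 0.0742), which is a level 0.483 times that of controls. Hspd1 was called in 3 of the 17 alternatives, and limma's adjusted p lay between 0.0332 and 0.282 across them. Without control replicate 4 the log2 fold change was -0.91 (adjusted p = 0.0457). Without control replicate 5 it was -1.18 (adjusted p = 0.0332), and without Cre+ replicate 1 it was also -1.18 (adjusted p = 0.0476). Those fits also gave more calls over all genes, 403, 525 and 695 in that order, against 228 in the main fit. Of the 50-base stretches of Hspd1, 39.7% also occur in other genes, 9 in all, with the pseudogene Hspd1-ps3 closest.

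Hspe1, the HSP10 lid of the same chamber (chromosome 1, 55088132 to 55091307), had 305, 268, 208 and 325 normalized counts in Cre+ hearts, against 396, 393, 311, 239 and 441 in controls. Here control replicate 4, the highest library for Hspd1, was the lowest control and lay inside the Cre+ range. The log2 fold change was -0.35 (SE 0.24, limma adjusted p = 0.416). Hspa9, the mitochondrial HSP70 mortalin, had 1864, 2551, 1684 and 2145 normalized counts in Cre+ hearts, against 2695, 2860, 2252, 5635 and 3040 in controls. Cre+ replicate 2 overlapped the lowest control, and control replicate 4 again stood far above the rest. The log2 fold change was -0.55 (SE 0.27, limma adjusted p = 0.254). All 3 genes stayed below 0 under TMM scaling, with a median of -0.44, and with the mitochondrially encoded share as a covariate, with a median of -0.72. Control replicate 4, from a male, had the lowest such share of the controls, 30.4%, and its part in these values was not tested further.

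The same 3 genes overlapped wild type in experiment A. Hspd1 had at most 176 CPM in CAP2 -/- hearts, and all 3 of these libraries lay within the range of 156 to 194 CPM in wild type, for a log2 fold change of -0.028 (edgeR SE 0.12, adjusted p = 0.965). Hspe1 had 33.5, 29.1 and 30.4 CPM in CAP2 -/- hearts, against 30.2, 22.6 and 35.4 CPM in wild type, for a log2 fold change of 0.07. Hspa9 had 564, 512 and 531 CPM in CAP2 -/- hearts, against 593, 514 and 552 CPM in wild type, for a log2 fold change of -0.046. Whether the effect on these genes differs between the experiments was not tested.

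**Figure D4:**
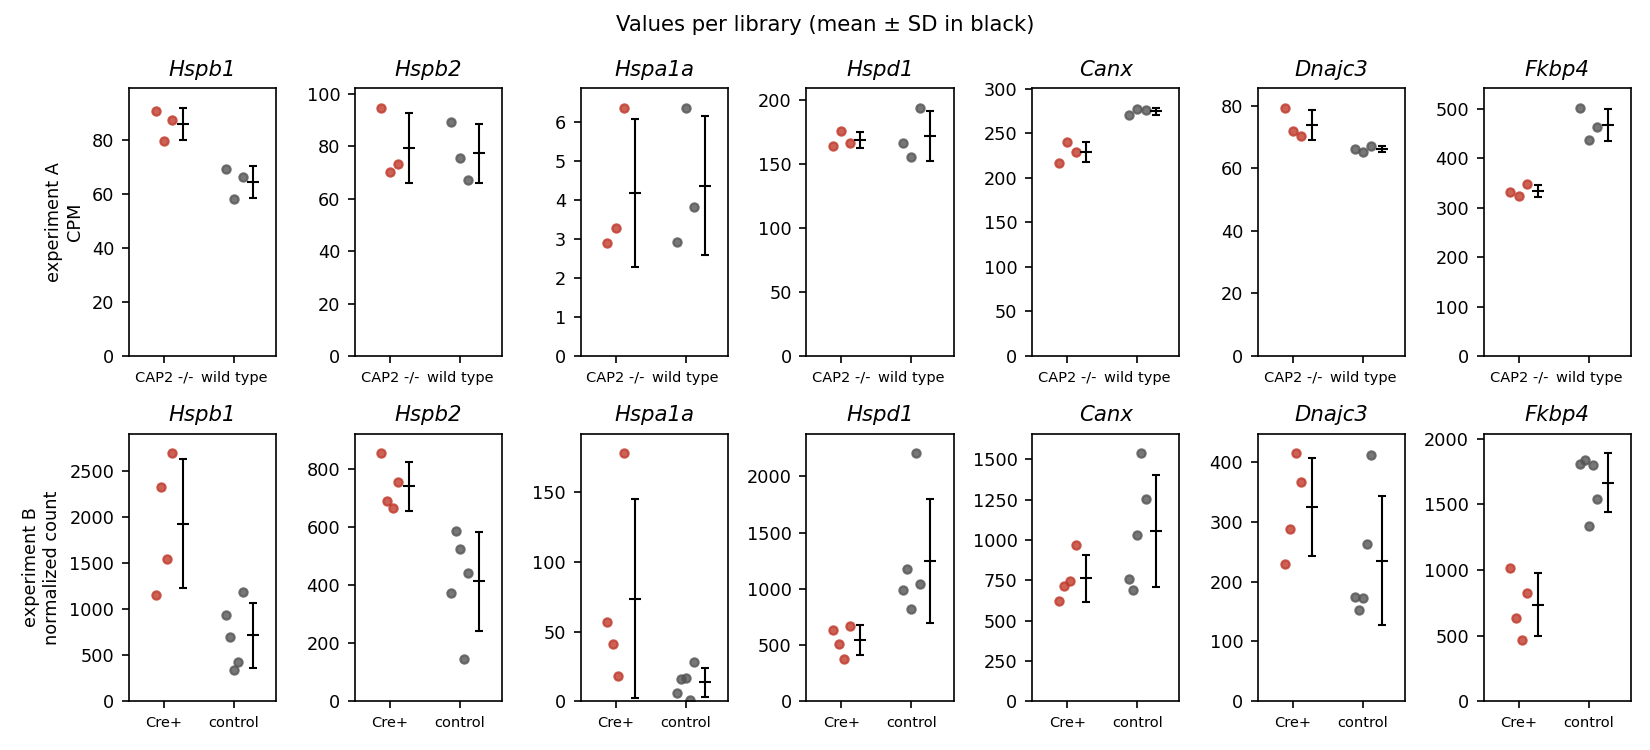
Value of 7 genes in each library, in CPM for experiment A (top) and normalized counts for experiment B (bottom), with CAP2 -/- or Cre+ left of wild type or controls and the mean ± SD in black beside the points. Fkbp4 is below every wild-type or control library in both rows, at 323 to 348 CPM in CAP2 -/- hearts against 437 to 502 CPM in wild type, and at 464 to 1019 normalized counts in Cre+ hearts against 1333 to 1842 in controls.

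Genes of the ER were mostly below 0 in aged CAP2 -/- hearts and mostly above 0 in Cre+ hearts. In experiment A 10 of 15 were below 0 and 5 above, beside 50.9% of all genes above 0, with a class median of -0.13. In experiment B 10 of 15 were above 0, beside 41.5% of all genes, with a median of 0.23. Gene by gene the class did not reverse: 8 of the 15 had the same sign in both experiments (53.3%), beside 57.6% of all genes tested in both. By library the groups overlapped in both experiments. Set against the mean of wild type, the class median was -0.29, 0.048 and -0.12 in CAP2 -/- hearts, against 0.015, -0.084 and 0.099 in wild type. Set against the mean of the controls, it was 0.17, 0.15, 0.24 and 0.25 in Cre+ hearts, against -0.031, -0.32, -0.062, -0.071 and 0.51 in controls. Control replicate 5, from a male, thus lay above all 4 Cre+ libraries. It had the highest fibroblast marker sum of the controls, 13727, beside 11022 to 30187 in Cre+ hearts. The part of fibroblast RNA in this class was not tested. The difference between the experiments was not tested, since their values come from separate tables, kits and ages. The median of experiment A was -0.052 without CAP2 -/- replicate 1, and in both experiments the median kept its sign under all alternatives.

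Canx and 2 other ER genes, Manf and Hyou1, had lower values in every CAP2 -/- library than in any wild-type library. Canx, the lectin chaperone calnexin (chromosome 11, 50293961 to 50325673), had 217, 240 and 229 CPM in CAP2 -/- hearts, against 270, 277 and 276 CPM in wild type, with the log2 fold change being -0.26 (SE 0.11, edgeR adjusted p = 0.369). Manf, a secreted factor of the stressed ER (chromosome 9, 106838312 to 106891979), had 25.1, 28.4 and 27.1 CPM in CAP2 -/- hearts, against 33.8, 31.6 and 37.4 CPM in wild type. Its log2 fold change was -0.35 (SE 0.13, edgeR adjusted p = 0.327). Hyou1, the ER member of the HSP110 family (chromosome 9, 44379490 to 44392369), had 46.9, 62.3 and 67.3 CPM in CAP2 -/- hearts, against 79, 71.5 and 71.6 CPM in wild type. Its log2 fold change was -0.33 (SE 0.14, edgeR adjusted p = 0.387). In experiment B these genes did not go together. Manf had 319, 192, 284 and 334 normalized counts in Cre+ hearts, against 217, 177, 206, 98 and 240 in controls, whereas Canx had 622, 714, 747 and 968 in Cre+ hearts, against 761, 693, 1034, 1537 and 1253 in controls. The log2 fold changes were 0.60 for Manf, -0.33 for Canx and -0.32 for Hyou1, and all of these groups overlapped.

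Dnajc3, a DNAJ protein of the ER lumen that also inhibits the kinase PERK (chromosome 14, 118937976 to 118981697), was above 0 in both experiments. It had 79.3, 72 and 70.5 CPM in CAP2 -/- hearts, against 66.1, 65.3 and 67.3 CPM in wild type. The groups did not overlap, and the log2 fold change was 0.16 (SE 0.11, edgeR adjusted p = 0.712). In experiment B it had 229, 288, 414 and 366 normalized counts in Cre+ hearts, against 174, 153, 173, 263 and 412 in controls. Control replicate 5 lay just under the highest Cre+ library, and the log2 fold change was 0.64 (SE 0.25, limma adjusted p = 0.178). Canx and Dnajc3 both carry the ER stress element in the windows shown above and had opposite signs in experiment A. Over the 7 genes with this element, the median log2 fold change was -0.13 in experiment A and 0.22 in experiment B, and over the 6 ER genes whose window lacks it, -0.0014 and 0.47.

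Sdf2l1 and the disulfide isomerases Pdia3 and Pdia4 were the other genes of the class with limma's unadjusted p under 0.05 in experiment B. Pdia4 had a log2 fold change of 0.53 (SE 0.24, limma adjusted p = 0.222). Sdf2l1, a partner of BiP, had 43, 29, 30 and 43 normalized counts in Cre+ hearts, against 37, 16, 18, 10 and 20 in controls. Control replicate 1 lay within the Cre+ range and the other controls below it, for a log2 fold change of 0.87 (SE 0.38, limma adjusted p = 0.21). Pdia3, a disulfide isomerase that works with calnexin and calreticulin, had 954, 924, 1348 and 1050 normalized counts in Cre+ hearts, against 587, 698, 777, 720 and 1081 in controls. Control replicate 5 was inside the Cre+ range, for a log2 fold change of 0.52 (SE 0.23, limma adjusted p = 0.219). In aged hearts Sdf2l1 had 3.9, 7.87 and 4.45 CPM in CAP2 -/- hearts, against 7.75, 4.51 and 7.26 CPM in wild type, and Pdia3 had 109, 132 and 126 CPM in CAP2 -/- hearts, against 122, 115 and 125 CPM in wild type. For both genes those groups overlapped. Hspa5, which encodes BiP, had a log2 fold change of -0.18 in each experiment, and Xbp1 had 0.019 in CAP2 -/- hearts and 0.43 in Cre+ hearts. Herpud1, a gene of ER-associated degradation and the most variable of the class in wild type, had 493, 341 and 362 CPM in CAP2 -/- hearts, against 336, 691 and 380 CPM in wild type.

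The wider folding network gave 1 gene called of 82 in experiment A, beside 1.35% of all genes, and 1 of 83 in experiment B, beside 1.88%. It was the same gene, Fkbp4, in both, and neither count exceeds the share over all genes. Fkbp4 encodes FKBP52, a co-chaperone of HSP90 that binds steroid receptors (chromosome 6, 128429735 to 128438677). It fell to 332, 323 and 348 CPM in CAP2 -/- hearts, against 502, 437 and 463 CPM in wild type, for a log2 fold change of -0.48 (edgeR SE 0.11, adjusted p = 0.0337). In experiment B it fell to 1019, 634, 464 and 825 normalized counts in Cre+ hearts, against 1811, 1842, 1333, 1803 and 1544 in controls, for a log2 fold change of -1.21 (SE 0.26, limma adjusted p = 0.0445). Neither pair of groups overlapped. The authors' deposited table gives Fkbp4 a log2 fold change of -0.49 (adjusted p = 0.00194). The call did not hold without some of the libraries, in fits that also have fewer libraries. Leaving out a library gave adjusted p of 0.0495 to 0.17 in experiment A and of 0.021 to 0.151 in experiment B, and the sign was the same each time. In experiment A the call was lost without any of the 3 CAP2 -/- libraries and without wild-type replicates 1 or 3. In experiment B it was lost without Cre+ replicates 2, 3 or 4 and without control replicates 1, 2 or 3. Without Cre+ replicate 4 the fold change is that of females only. Its adjusted p was 0.0744 with TMM scaling, 0.0663 in females only and 0.206 with the mitochondrially encoded share as a covariate. Across all alternatives its log2 fold change lay between -0.53 and -0.43 in experiment A and between -1.39 and -1.03 in experiment B.

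Of the 82 related genes tested in experiment A and 83 tested in experiment B, no other was called. Among related mitochondrial chaperones and proteases, 8 of 11 were below 0 in Cre+ hearts, with a median of -0.36, and 4 had groups that did not overlap, where all genes gave 4.79%: Grpel2, Dnaja3, Clpx and Yme1l1, named here after their values were seen. Subunits of the cytosolic chaperonin and of prefoldin were above 0 in 11 of 14 in experiment A and 13 of 14 in experiment B. The shares over all genes were 50.9% and 41.5%. Most of these values were small, with medians of 0.036 and 0.11. At an unadjusted p under 0.05 there were 0 of them in experiment A (edgeR) and 1 in experiment B (limma). Related co-chaperones of the cytosol had a median of 0.036 in experiment A and one of -0.10 in experiment B. Related genes of ER folding, sensing and degradation followed the members of the ER class in sign, with medians of -0.097 over 29 genes in experiment A and 0.37 over 29 genes in experiment B. In experiment A the groups of 8 of these 29 did not overlap on the lower side and of 1 on the higher side, Ddit3, beside 8.00% and 7.60% of all genes.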

How the data were processed

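Whole-heart RNA was made into Ion Total RNA-Seq libraries (experiment A) or stranded TruSeq libraries (experiment B), per the labels' protocols. The submitters' processing notes name the build mm10, STAR 2.6.0c and DESeq, with no role; how reads were counted, and whether by strand, is not given in the sources used here. In experiment A, estimated counts per gene were deposited, and these were rounded to whole numbers. A comparison of the authors, with log2 fold changes and p-values, came with them, per the file headers. In experiment B, the deposited values were normalized read counts rounded to whole numbers, handled as a score since the method is not stated. For experiment A, edgeR 4.0.16 (R 4.3.3) supplied TMM factors, filterByExpr and a robust quasi-likelihood test, and its CPM use TMM-adjusted totals of tested genes. Its standard error is the fold change divided by the square root of F. For experiment B, limma 3.58.1 with its robust trend option was applied to log2(value + 1), a scale that understates folds of low genes, over genes with a mean of at least 10, with sex as a term. P-values were adjusted over all genes tested, with a threshold of 0.05. The fits were tested on simulated data. Alternatives used DESeq2 1.42.0, RLE factors, other filters, scalings, pseudocounts and covariates, a replicate block and leaving out each library. GENCODE M21 placed 36308 of 38087 identifiers in experiment A and 54165 of 54232 in experiment B. Each library has a number of its own in the labels, which do not say outright that it is an animal's; if replicates are not separate animals, p-values measure technical spread. The members and lists were chosen with earlier results of these data known. The genes named are those called, the 3 of each class with the smallest p in each experiment, and called members of the related lists; other members and related genes were named after their values were seen.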

Additional observations from a re-analysis of the deposited data

Results flagged for a closer look

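Within experiment B, 80 sets of values (40 genes in Cre+ hearts and in controls) were searched for a library far from the others of its group. The search found 8, all of them high values. Chance gives about 1 in 20 only for independent sets with a normal spread. The search used counts, not log2 values, and the sets share libraries, so it cannot show an excess over chance. Control replicate 4 held 3 of them: 5635 normalized counts of Hspa9, beside 2252 to 3040 in the other controls, 2204 of Hspd1, beside 818 to 1180, and 959 of Hspa4, an HSP110 protein, beside 434 to 555. Control replicate 5, like control replicate 4 from a male, held 410 of Xbp1, beside 246 to 288, and 659 of the disulfide isomerase gene Pdia6, beside 346 to 424. Control replicate 1 held 582 of Dnajb5, beside 288 to 313. In Cre+ hearts, replicate 2 held 5898 of Hsp90ab1, beside 4785 to 4920, and replicate 1 held 212 of Hsf1, beside 140 to 151.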

How the results depend on the processing

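In experiment A 0 chaperone genes were called under each of the 10 alternatives. In experiment B 1 was called with no filter on low values (Hspb1), and leaving out a library gave 0 to 2 (Hspb1 and Hspd1). Related genes called in experiment A numbered 2 with no filter on low counts, 0 with the replicate block (Fkbp4 adjusted p = 0.108, edgeR) and 0 to 1 without a library; in experiment B they numbered 0 with TMM scaling, 0 in females only, 0 with the mitochondrially encoded share as a covariate and 0 to 4 without a library. The cause was not tested. Replicate numbers gave no sign of pairing: the deviations of same-numbered libraries correlated at -0.166, -0.152 and -0.0309 in experiment A and at 0.24, -0.113, 0.182 and 0.0332 in experiment B, and only numbers 3 and 4 of experiment B correlated best with their own number. The replicate block in experiment B leaves out control replicate 5, which has no partner: all genes gave 394 calls with it, against 525 without that library and no block; chaperone genes gave 0 in both experiments with the block. All genes gave 402 calls with DESeq2, 512 with no filter and 126 to 275 without a library in experiment A, against 220, and 36 with the mitochondrial covariate, 346 with no filter, 335 with quantile normalization and 39 to 695 without a library in experiment B. Genes near 0 changed sign without a library in experiment A: Hspa1a ran from -0.46 to 0.34, Hspa1b from -0.22 to 0.32, Hspa9 from -0.097 to 0.006, Hspb2 from -0.11 to 0.15, Hspd1 from -0.095 to 0.066, Hspe1 from -0.081 to 0.22 and Pdia3 from -0.033 to 0.099. In experiment B Dnajb5 ran from -0.52 to 0.17 and was 0.027 with the mitochondrial covariate. The other 32 of 40 gene results kept their sign. These 40 results are those of Fkbp4 and of the members with the smallest p in each class, each in both experiments. They are not the 40 chaperone genes, whose other members were followed only by class. Of all 40 chaperone genes in experiment A, 21 were above 0 in the main fit and 17 with no filter on low counts.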

Other observations

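Genes of collagen folding in the ER, named here after their values were seen, were among the higher related genes of experiment B. P4hb, a subunit of collagen prolyl hydroxylase and a disulfide isomerase, averaged 2404 ± 556 normalized counts in Cre+ hearts (SD, n = 4) and 1220 ± 214 in controls (SD, n = 5), for a log2 fold change of 0.99 (limma adjusted p = 0.0669). Serpinh1, the collagen chaperone HSP47, averaged 1967 ± 313 in Cre+ hearts and 1085 ± 332 in controls, with a log2 fold change of 0.88 (limma adjusted p = 0.111). Fibroblast markers summed to 11022 to 30187 in Cre+ hearts and 3271 to 13727 in controls, and their part in these values was not tested. In experiment A the log2 fold changes were 0.12 for P4hb and -0.03 for Serpinh1.

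Transcription factors of the unfolded protein response did not share a direction, and none was called; those given here were named after their values were seen. Atf6 had 138, 143 and 176 CPM in CAP2 -/- hearts, against 181, 182 and 177 CPM in wild type, groups that did not overlap, with a log2 fold change of -0.24 in experiment A and one of -0.023 in Cre+ hearts. Atf4 and Ddit3 were above 0 in both experiments. Atf4 averaged 87.4 ± 14.6 CPM in CAP2 -/- hearts and 71 ± 4.09 CPM in wild type (SD, n = 3 each), and 1114 ± 322 normalized counts in Cre+ hearts and 620 ± 187 in controls, with log2 fold changes of 0.30 and 0.86. Its target Ddit3, which encodes CHOP, had log2 fold changes of 0.44 in CAP2 -/- hearts (edgeR adjusted p = 0.342) and 0.56 in Cre+ hearts (limma adjusted p = 0.362). Smyd1, a muscle methyltransferase that works with HSP90, averaged 621 ± 15.4 CPM in CAP2 -/- hearts and 709 ± 17.3 CPM in wild type, and 921 ± 163 normalized counts in Cre+ hearts and 1854 ± 1096 in controls. Control replicate 4 had 3786 normalized counts of Smyd1, beside 1180 to 1625 in the other controls. The groups of Smyd1 did not overlap in either experiment, and it was not called in either. Groups without overlap on the lower side made up 8.00% of all genes in experiment A and 4.79% in experiment B. Smyd1 too was named after its values were seen.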
